A study of Mus musculus with 12 samples.

Results

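Microparticles (MP) were added to macrophages that also received lipopolysaccharide (LPS), and the transcripts of these cells were compared with those of cells given LPS without microparticles. The cells were J774A.1, an established macrophage-like line of BALB/c mouse origin, so all libraries come from 1 line. The comparison used 6 of the 12 libraries of the series, 3 labelled LPS+MP and 3 labelled LPS, and microparticles are the labelled difference between them. The remaining libraries came from mock-treated cells (control, 3) and from cells given microparticles without LPS (MP, 3). What the microparticles were made of, their dose, the LPS dose, the times of exposure and whether the agents were given together are not stated in the sources used here. Polyadenylated RNA was sequenced, and values were read as CPM, each gene’s reads after every library is brought to the same sum. All genes of at least 1 CPM in at least 3 of the 12 libraries were compared, which gave 11745 of the 11762 genes deposited. The third-highest value was 1.01 CPM in Ankrd34a, the gene closest to this limit from above, and 0.998 CPM in Spa17, the closest from below.

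LPS, a component of the Gram-negative cell envelope, is sensed by Toll-like receptor 4 with its partners MD-2 and CD14. The receptor signals through MyD88 and TRIF to NF-kB, MAP kinases and interferon regulatory factors, which drive cytokine, chemokine and antimicrobial genes. Macrophages engulf particles through scavenger, Fc, complement and C-type lectin receptors and digest them in lysosomes, and LPS-activated macrophages commonly divide less.

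All 8 macrophage markers examined were present in both groups, with summed levels of 5603 to 5793 CPM in LPS+MP and 6991 to 8196 CPM in LPS. Of 54 markers of 11 other cell types 10 were in the table, and 5 types had none there. Without Pf4, whose level was 548 ± 61.6 CPM in LPS and 420.3 ± 40.9 CPM in LPS+MP, these markers summed to 41.4 to 51.8 CPM in LPS and 26.3 to 29.6 CPM in LPS+MP; their part in the results was not tested. LPS replicate 2 stood apart. It correlated with the other LPS libraries at a median r of 0.979, against 0.986 to 0.997 for the other 11 libraries within their groups, and 339 genes lay over 2-fold from the mean of its group, against 29 and 17 in the other LPS libraries. Its deviation moved with the GC content of the transcripts (Spearman -0.596 across genes), and the fold changes of LPS+MP against LPS correlated with GC content at 0.21 with this library and -0.015 without it. For the gene lists, the number called is therefore given below also without LPS replicate 2 where it moves. Mitochondrially encoded transcripts took 5.86% ± 1.02 of the values in LPS and 4.14% ± 0.378 in LPS+MP, and their part in the results was not tested. In pooled cells, fewer cells expressing a gene and less RNA per cell cannot be told apart.

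Adding microparticles to LPS-treated cells lowered many more genes than it raised. Rises and falls are called where the adjusted p of limma was under 0.05 and the change exceeded 2-fold on the log2(CPM + 1) scale. Levels are means ± SD and log2 fold changes are given ± SE, with n = 3 libraries a group. The SE of a gene rests on 1 variance estimate over all 4 groups, not on the compared libraries alone. The LPS group varied most, with a median SD over genes of 0.191 on this scale. The median SD was 0.0845 in control, 0.0983 in MP and 0.0863 in LPS+MP. By the rule for calls, 74 of 11745 genes rose (0.63%) and 457 fell (3.89%). At an adjusted p under 0.05 with no limit of size, 1531 genes were higher (13%) and 2607 were lower (22.2%). The LPS+MP libraries lay entirely above the LPS libraries in all 74 genes that rose and entirely below in 455 of the 457 that fell. A call already requires a large difference between the groups, so these counts are no separate support for the calls. The share of all genes whose libraries separate is not given here. The changes were also deeper downward, as 66 genes fell by more than 4-fold and 4 rose by as much. Without LPS replicate 2, 71 genes rose and 450 fell, including 61 of the 74 and 403 of the 457. Quantile normalization, which forces the same distribution of values on every library, gave 129 rises and 341 falls, so that 27.4% of the calls were rises against 13.9%.

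**Figure D1:**
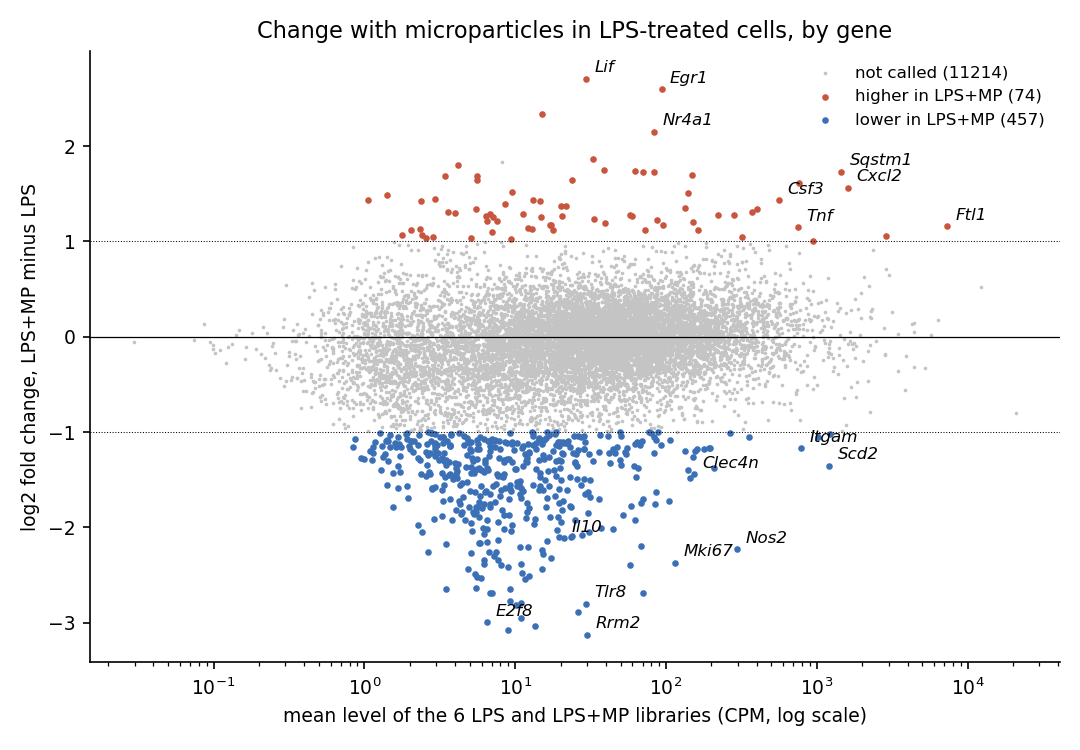
Change with microparticles in LPS-treated cells for the 11745 genes tested: the x axis is the mean level of the 6 LPS and LPS+MP libraries (CPM, log scale) and the y axis the log2 fold change of LPS+MP minus LPS, with dotted lines at 2-fold. The 74 genes that rose (red) lie over the whole range of levels, and the 457 that fell (blue) lie mostly under 100 CPM.

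Genes were also read in 40 lists, whose 700.0 tested genes held 28 of the rises and 89 of the falls; listed genes that were not tested are not analysed here. The counts of each list are to be read beside the shares over all genes tested, 0.63% that rose and 3.89% that fell. Cell division genes made up most of the falls within the lists. Of 84 genes in 4 lists (mitosis and spindle, DNA replication and nucleotide supply, homologous recombination and Fanconi repair, cell cycle regulators), 62 fell and 0 rose, which is 13.6% of all falls; without LPS replicate 2, 64 fell. In the mitosis list 18 of 20 genes fell, with a median log2 fold change of -1.97, where the median of all genes tested was -0.05. The 20 genes summed to 554 to 705 CPM in the LPS libraries and to 147 to 169 CPM in the LPS+MP libraries. In control cells they summed to 3959 ± 103 CPM and in MP cells to 2509.8 ± 38.8 CPM. The groups did not overlap, and LPS+MP cells had the lowest level of the 4.

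**Figure D2:**
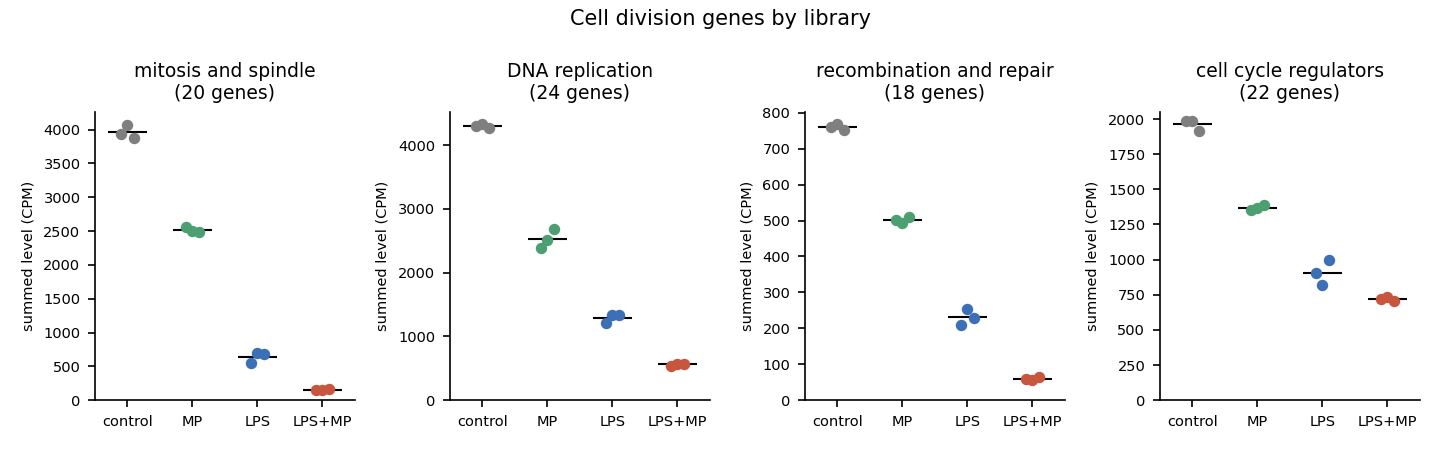
Summed level (CPM) of the genes of 4 cell division lists in each of the 12 libraries, with points for libraries and bars for group means. In each list the LPS+MP libraries are the lowest, and the mitosis list falls from 645 CPM on average in LPS to 157 CPM in LPS+MP.

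Kif11, the kinesin motor that pushes the poles of the spindle apart, stood at 14.3, 20.1 and 15.7 CPM in the LPS libraries and at 1.62, 1.57 and 2.26 CPM in the LPS+MP libraries. Each LPS+MP library was far below every LPS library, and the fold change was -2.65 ± 0.12 (adjusted p = 9.14e-10). Top2a, the topoisomerase that untangles sister chromatids, read 84.5, 108 and 101 CPM in LPS and 17.6, 17.9 and 17.6 CPM in LPS+MP. The proliferation antigen gene Mki67 read 167, 215 and 199.7 CPM and 34.5, 31.6 and 44.7 CPM, and Aurkb, the kinase that corrects chromosome attachment, 15.4, 15.9 and 16.2 CPM and 1.74, 2.15 and 2.64 CPM. The cyclin of mitotic entry, Ccnb1, fell by 1.88 ± 0.10, and its kinase Cdk1 fell by 1.31 ± 0.12. Cdc20, the activator of the anaphase-promoting complex, fell by 1.53 ± 0.09. Kinetochore genes followed the same direction: the log2 fold change was -2.77 ± 0.20 for Cenpf, -2.68 ± 0.14 for Nuf2, -1.86 ± 0.11 for Ndc80 and -3.07 ± 0.20 for Casc5, which anchors the outer kinetochore.

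Promoter sequences are shown for the mitosis genes Kif11, Cdc20 and Cdk1, the regulator gene E2f8 and the replication gene Mcm6. These are examples that hold the motifs described next and do not stand for all cell division genes that fell. Late cell cycle genes are known to share a CCAAT box, bound by NF-Y, and a cell cycle homology region (CHR), bound by the DREAM and MuvB complexes. Replication genes often carry E2F elements. The bases just before the RefSeq start of the genes (GRCm38.p6) are printed from 5′ to 3′ on the strand of the gene, with matches to these motifs in capitals.

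Kif11 (chr19:37376312-37376381, plus strand): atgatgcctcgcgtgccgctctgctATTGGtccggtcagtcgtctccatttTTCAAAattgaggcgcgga
Cdc20 (chr4:118437344-118437413, minus strand): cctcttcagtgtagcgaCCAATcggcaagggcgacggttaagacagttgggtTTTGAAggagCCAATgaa
Cdk1 (chr10:69352913-69353052, minus strand): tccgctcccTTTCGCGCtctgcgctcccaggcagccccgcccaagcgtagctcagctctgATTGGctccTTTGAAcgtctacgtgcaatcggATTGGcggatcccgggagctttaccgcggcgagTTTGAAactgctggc
E2f8 (chr7:48881597-48881716, minus strand): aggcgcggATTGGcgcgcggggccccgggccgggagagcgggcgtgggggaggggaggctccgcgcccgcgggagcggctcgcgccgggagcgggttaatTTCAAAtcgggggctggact
Mcm6 (chr1:128359706-128359825, minus strand): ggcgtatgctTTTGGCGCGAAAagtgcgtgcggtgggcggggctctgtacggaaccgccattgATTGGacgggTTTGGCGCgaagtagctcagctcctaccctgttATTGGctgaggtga

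In Kif11 a CCAAT box, here as its reverse complement ATTGG, ends 41 bases before the start and a CHR ends 14 bases before it. Cdc20 and Cdk1 each hold a CCAAT box and a CHR in the bases shown, and Cdk1 also holds an E2F element that begins 131 bases before the start. E2f8 holds both a CCAAT box and a CHR, and Mcm6, a gene of the replicative helicase, holds CCAAT boxes and E2F elements and no CHR in this stretch. The letters searched on both strands of the 250 bases before each start were CCAAT for the CCAAT box, TTTGAA or TTCGAA for the CHR, and TTTCCCGC or TTTGGCGC or TTTCGCGC or TTTGCCGC for E2F. A CCAAT box was found in 15 of the 17 mitosis genes with a RefSeq promoter (88.2%), against 34.5% of all 27025 promoters of the table and 37.2% of the 8699 promoters of genes tested. A CHR was found in 8 (47.1%), against 17.4% and 12%, and the same 8 held both motifs, against 6.21% and 4.9%. E2F letters were found in 6 of 19 replication genes (31.6%), against 1.91% of all promoters and 3.61% of those of genes tested. The replication genes held a CCAAT box in 12 (63.2%) and a CHR in 5 (26.3%), and 1 mitosis gene held E2F letters (5.88%). In the recombination and Fanconi list, where 16 of 18 genes fell, 13 had a promoter. Of these 7 held a CCAAT box (53.8%), 1 a CHR (7.69%) and 2 E2F letters (15.4%), and 0 held both a CCAAT box and a CHR. Among the 343 genes that fell and had a promoter in the table, 50.4% held a CCAAT box, 21% a CHR and 6.71% an E2F element, and the shares among 48 genes that rose were 25.0%, 12.5% and 4.17%. No CCAAT box overlapped a CHR or an E2F match in the mitosis and replication lists. A match is a description of these letters only.

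The replication list held 20 falls among 24 genes (median -1.71), and 19 without LPS replicate 2, where Mcm2 missed the size limit. Mcm2 changed by -1.0 ± 0.07 with all libraries and was also not called without LPS replicate 3 (-0.96) or LPS+MP replicate 1 (-0.95). Rrm2 (chromosome 12, 24708241 to 24714146), the regulated subunit of ribonucleotide reductase, which makes the DNA building blocks, read 46.2, 61.6 and 56.5 CPM in LPS and 4.84, 4.94 and 6.39 CPM in LPS+MP. Every LPS+MP library was several times below every LPS library, and the change of -3.12 ± 0.11 was the deepest fall among named genes on the log2(CPM + 1) scale, on which genes near 0 CPM such as Neil3 are compressed (adjusted p = 9.83e-11). Its partner subunit Rrm1 fell by 1.78 ± 0.08. Cdc6, which loads the helicase onto origins, read 17.3, 25.0 and 18.5 CPM and 1.84, 1.33 and 2.04 CPM. The helicase genes Mcm6, Mcm5 and Mcm3 changed by -2.19 ± 0.08, -2.02 ± 0.09 and -1.75 ± 0.07. Pole, the leading-strand polymerase, fell by 2.79 ± 0.15, and Lig1, which joins the lagging-strand fragments, fell by 2.04 ± 0.07. Clspn, the adaptor of the replication checkpoint, was outside the lists and fell from 24.9 ± 5.61 to 2.15 ± 0.622 CPM.

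Repair genes that act on broken or stalled replication forks fell with them. In the recombination and Fanconi list 16 of 18 genes fell (median -1.81). The count was 17 without LPS replicate 2, and the additional gene was Xrcc2, a DNA repair gene (-0.99 ± 0.14 with all libraries and -1.13 without this one). Exo1, the nuclease that resects DNA ends, read 10.7, 17.2 and 11.1 CPM in LPS and 1.26, 0.960 and 1.18 CPM in LPS+MP. Rad54l, a DNA motor of recombination, fell by 2.38 ± 0.15. Brca1, which directs ends to recombination, fell from 32.6 ± 3.51 to 7.74 ± 0.989 CPM, and Fancd2 and Fanca of the crosslink repair pathway changed by -2.02 ± 0.11 and -1.44 ± 0.10. Neil3, a DNA glycosylase outside the list, fell from 6.76 ± 1.99 to 0.218 ± 0.117 CPM, a level at which the pseudocount of 1 compresses the log2 fold change (-2.65 ± 0.16).

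Of 22 regulators of the cell cycle 8 fell and 0 rose (median -0.73), and 10 fell without LPS replicate 2. The additional genes were the D-type cyclin gene Ccnd3, at -0.99 ± 0.12 with all libraries and -1.16 without this one, and E2f2, an activator of the E2F family, at -0.74 ± 0.19 and -1.07. E2f8, a repressor of the E2F family, read 12.3, 10.6 and 13.9 CPM in LPS and 0.474, 0.871 and 0.654 CPM in LPS+MP, so all LPS+MP libraries were under 1 CPM. Its relative E2f7 fell from 4.14 ± 0.367 to 0.361 ± 0.502 CPM. The transcription factors of late cycle genes, Foxm1 and Mybl2, changed by -2.23 ± 0.12 and -1.74 ± 0.09. The cyclins of the first phase, Ccnd1 and Ccne1, changed by -1.35 ± 0.10 and -1.09 ± 0.10. The inhibitor gene Cdkn1a, which encodes p21, read 178, 114 and 178 CPM in LPS and 278, 266 and 248 CPM in LPS+MP, and at 0.78 ± 0.13 it did not reach the size limit (adjusted p = 2.57e-04). Of 18 targets of p53 0 were called in either direction, with 6 higher and 2 lower at any size. Mdm2, the ligase that degrades p53, read 159.6, 158 and 154 CPM in LPS and 284, 292 and 286 CPM in LPS+MP (0.87 ± 0.06), and Plk2 stood at 0.78 ± 0.08. Plk3, a stress-responsive polo kinase outside the lists, rose 3.20-fold, from 71.0 ± 18.6 to 227 ± 5.34 CPM. In the BCL2 family 1 of 16 genes fell, the death-promoting Bmf, from 2.28 ± 0.536 to 0.534 ± 0.130 CPM. For a list of this size, 1 fall is near the share of all genes that fell (3.89%).

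**Figure D3:**
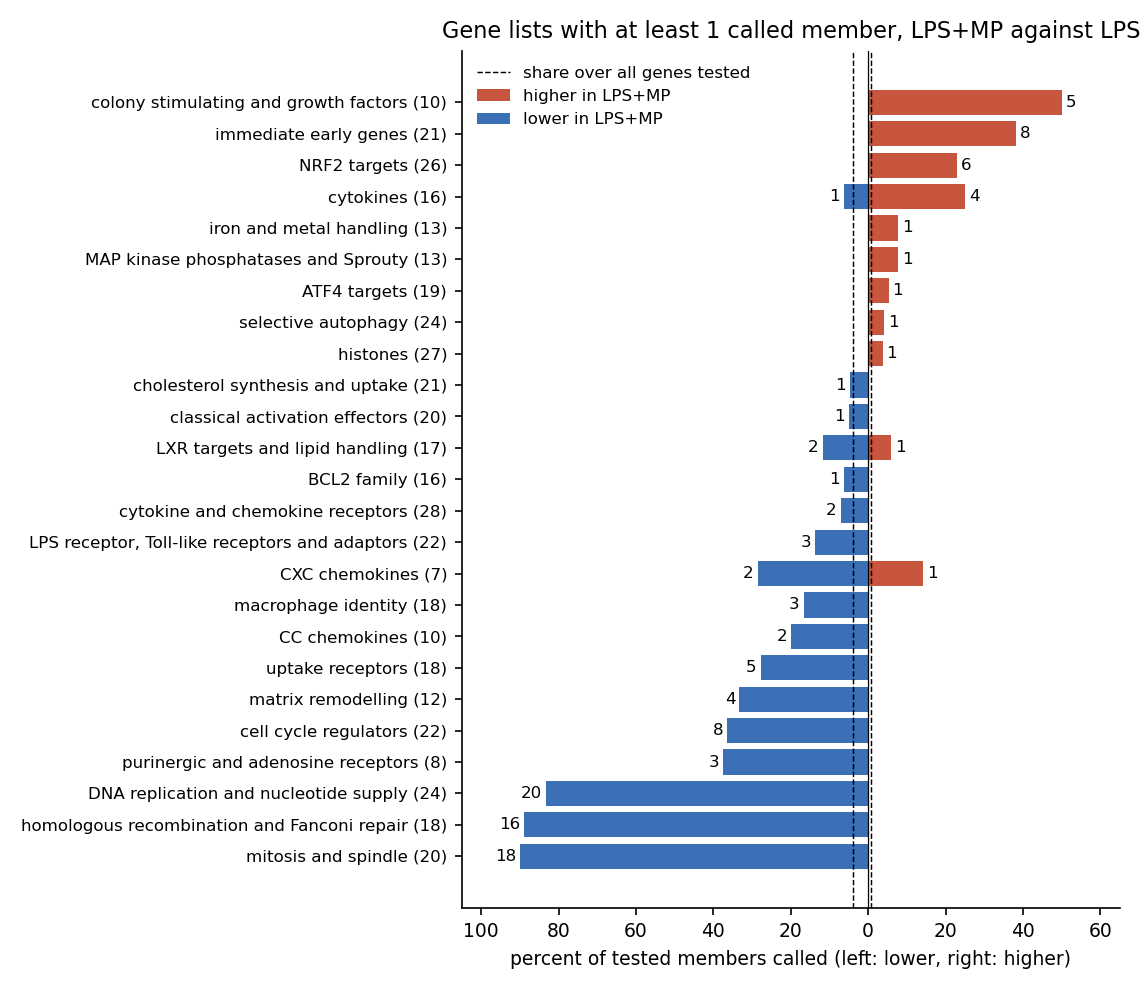
Gene lists with at least 1 called member in LPS+MP against LPS: bars give the percent of tested members that rose (red, right) or fell (blue, left), numbers at the bars give the genes, and dashed lines mark the shares over all genes tested, 0.63% and 3.89%. The 3 longest bars, to the left, are mitosis (18 of 20), recombination (16 of 18) and replication (20 of 24).

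Immediate early genes, the transcription factors switched on first by kinase signalling, were the list with the most rises. Of 21 genes 8 rose and 0 fell, and 18 were higher at any size (median 0.89); 7 rose without LPS replicate 2. Egr1, a zinc finger factor downstream of ERK, read 16.5, 27.6 and 36.7 CPM in LPS and 175, 148 and 158 CPM in LPS+MP. The LPS libraries were spread over more than 2-fold and the LPS+MP libraries were close together and all above them (2.60 ± 0.20, adjusted p = 1.33e-07). Nr4a1, an orphan nuclear receptor induced in activated macrophages, read 29.6, 21.2 and 42.5 CPM and 137, 136 and 136 CPM, and its relative Nr4a3 rose by 1.68 ± 0.26. Klf2, a zinc finger factor that restrains macrophage activation, read 4.36, 4.20 and 4.25 CPM in LPS and 27.9, 26.6 and 22.6 CPM in LPS+MP, against 28.4 ± 2.32 CPM in control cells. Its relative Klf4 rose by 1.42 ± 0.18. Fosb, a subunit of the factor AP-1, was at most 0.149 CPM in LPS and rose to 2.01 ± 0.594 CPM, and Fosl1 of the same family rose by 1.39 ± 0.29 (0.94 and not called without LPS replicate 2). Maff, a small MAF protein, rose by 1.24 ± 0.13. Zfp36, whose product destabilizes cytokine transcripts, lay just under the size limit at 0.98 ± 0.10.

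Among 13 MAP kinase phosphatases and Sprouty proteins, which feed back on the same signalling, 1 rose and 0 fell. This was Dusp5, an ERK phosphatase of the nucleus, at 45.4, 23.2 and 49.3 CPM in LPS and 131, 124 and 124 CPM in LPS+MP. LPS replicate 2 was the low library of its group, and all LPS+MP libraries were higher than any of them. Dusp1, which acts on p38 and JNK, stood at 0.99 ± 0.11 and missed the size limit. Without LPS replicate 2 the list had 2 rises, as the phosphatase gene Dusp14 passed the limit (0.84 ± 0.23 with all libraries and 1.10 without this one). Csrnp1, an immediate early nuclear protein outside the lists, read 31.7, 28.6 and 35.7 CPM and 112, 109.9 and 102 CPM, and Rhob, an endosomal GTPase gene of rapid induction, rose by 1.5 ± 0.08. Odc1, the first enzyme of polyamine synthesis, rose 3.06-fold to 1145 ± 101 CPM.

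Secreted factors moved in both directions. Of 16 cytokine genes 4 rose and 1 fell (median 0.34), and of 10 colony stimulating and growth factors 5 rose and 0 fell (median 0.79). Lif (chromosome 11, 4257557 to 4272514), a cytokine of the interleukin 6 family, had the largest rise of all genes named on the log2(CPM + 1) scale, which compresses genes near 0 CPM such as Fosb. It read 9.33, 3.98 and 8.41 CPM in LPS and 68.8, 45.3 and 40.8 CPM in LPS+MP, 7.13-fold higher by the means (2.71 ± 0.26, adjusted p = 1.26e-06). Osm, of the same family, read 89.6, 61.5 and 77.2 CPM and 194, 192 and 195 CPM. The LPS+MP libraries of both genes were all above the LPS libraries. The third family member, Il6, read 198, 248 and 180.3 CPM and 421, 442 and 421 CPM; its change of 1.05 ± 0.16 was close to the size limit and fell under it without LPS replicate 3 (0.95). Tnf, the early cytokine of macrophage activation, read 416, 503 and 472 CPM in LPS and 1096, 974 and 1014 CPM in LPS+MP (1.15 ± 0.09, adjusted p = 9.80e-08). Il10, the main anti-inflammatory cytokine of macrophages, was the one that fell with all libraries, at 33.8, 38.7 and 31.5 CPM in LPS and 5.70, 8.20 and 8.05 CPM in LPS+MP (-2.11 ± 0.17, adjusted p = 2.29e-07). Without LPS replicate 2 the falls were 2, Il10 and Il18, an inflammasome substrate that stood at -0.94 ± 0.20 with all libraries and -1.20 without this one. Il1b was at 1448 ± 138 and 1157 ± 33.6 CPM, a change of -0.32 ± 0.10 that did not reach the size limit.

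Csf3, the granulocyte colony stimulating factor gene, read 307, 260.4 and 349 CPM in LPS and 871, 775 and 819.7 CPM in LPS+MP. It was near 0 in cells without LPS, with 0.0448 ± 0.0563 CPM in control and 0.107 ± 0.0504 CPM in MP. Inhba, the activin A subunit, read 20.2, 8.48 and 13.7 CPM in LPS and 62.8, 46.7 and 45.9 CPM in LPS+MP and was likewise under 1 CPM without LPS. The LPS+MP libraries of both genes were all above the LPS libraries. The ligands of the epidermal growth factor receptor Areg and Hbegf rose from 1.08 ± 0.335 to 5.76 ± 1.55 CPM and from 4.14 ± 0.212 to 9.99 ± 0.391 CPM. Gdf15, a stress-induced member of the TGF-beta family, rose by 1.38 ± 0.19. Cxcl2, a neutrophil chemoattractant, read 794, 868 and 782 CPM and 2789.5, 2201 and 2267 CPM and was the 1 rise among 7 CXC chemokines. The 2 that fell were Ppbp, from 15.7 ± 4.27 to 3.21 ± 0.895 CPM, and Cxcl3, which read 109, 43.1 and 46.2 CPM in LPS and 28.8, 20.1 and 27.7 CPM in LPS+MP. LPS replicate 1 was the high library for Cxcl3, and without it the change of -0.80 was under the size limit. Among 10 CC chemokines 2 fell, Ccl6 (-1.63 ± 0.20) and the monocyte attractant gene Ccl12 (-1.37 ± 0.16).

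**Figure D4:**
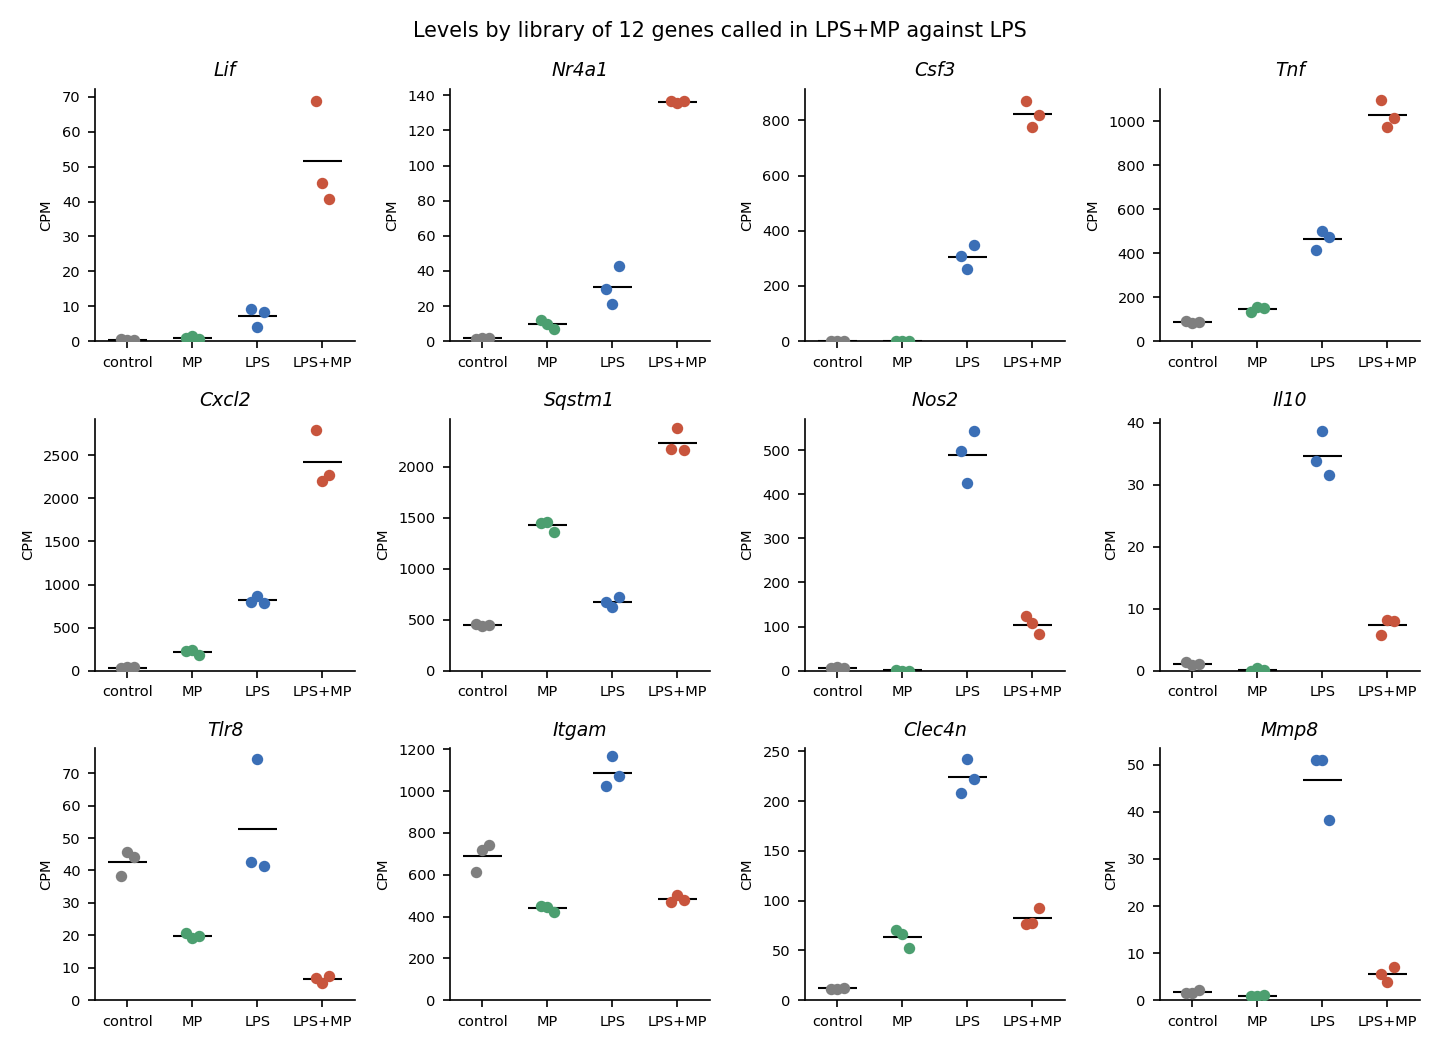
Levels (CPM, axes from 0) of 12 genes called in LPS+MP against LPS in each of the 12 libraries, with points for libraries and bars for group means. The top 2 rows start with the genes that rose (Lif to Sqstm1) and go on with genes that fell, and in each panel the LPS and LPS+MP points do not overlap.

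Of 20 effectors of classical activation 1 was called and fell, a share near that of all genes that fell (3.89%). This was Nos2 (chromosome 11, 78920787 to 78960254), inducible nitric oxide synthase. It read 498, 424 and 544 CPM in LPS and 124, 107 and 82.6 CPM in LPS+MP, 4.67-fold lower (-2.23 ± 0.23, adjusted p = 2.31e-06). The prostaglandin synthase gene Ptgs2 stood at 1632 ± 52.2 CPM in LPS and 3084 ± 303 CPM in LPS+MP and, at 0.91 ± 0.12, did not reach the size limit. Of 21 NF-kB subunits and feedback genes 0 were called, while 12 were higher and 3 lower at any size. The inhibitor gene Nfkbib read 90.6, 60.0 and 81.9 CPM and 147, 148 and 149 CPM (0.95 ± 0.11), and the adaptor gene Traf1 stood at 0.77 ± 0.11. Type I interferon effectors had 0 of 32 called (median -0.14): Oasl1 stood at 0.77 ± 0.10 and the antiviral GTPase gene Mx1 at -0.83 ± 0.17. No member was called among 13 guanylate-binding and immunity-related GTPases, 13 antigen presentation genes, 16 genes of the inflammasome and lytic death and 12 genes of STAT3 and SOCS feedback. Without LPS replicate 2, 1 gene of the STAT3 and SOCS list fell, the cytokine signalling inhibitor gene Socs1 (-0.68 ± 0.26 with all libraries and -1.04 without this one). In the inflammasome list the sensor gene Nlrp3 read 274, 277 and 271 CPM in LPS and 428, 427 and 426 CPM in LPS+MP (0.64 ± 0.06).

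Of 22 genes of the LPS receptor, Toll-like receptors and adaptors, 3 fell and 0 rose, and those that fell encode receptors for nucleic acids in endosomes. Tlr3 and Tlr9, which encode receptors of the same kind, were tested and not called. Tlr8 (chromosome X, 167242696 to 167264329), a sensor of RNA degradation products, read 42.5, 74.3 and 41.3 CPM in LPS and 6.89, 5.24 and 7.34 CPM in LPS+MP (-2.80 ± 0.18, adjusted p = 1.69e-08). LPS replicate 2 was its highest library, and the other LPS libraries were still over 5 times the LPS+MP libraries. Tlr13, a sensor of bacterial ribosomal RNA, read 126, 156 and 108 CPM and 38.8, 39.0 and 45.8 CPM. Tlr7, a sensor of single-stranded RNA, read 87.6, 112 and 81.6 CPM and 42.9, 38.1 and 44.6 CPM, and its change of -1.13 ± 0.10 dropped just under the size limit without LPS replicate 2. The LPS receptor gene Tlr4 read 50.9, 67.9 and 48.7 CPM in LPS and 28.7, 28.7 and 28.0 CPM in LPS+MP, a change of -0.93 ± 0.11 that did not reach the size limit.

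Among receptors for cytokines and chemokines 2 of 28 fell and 0 rose, a share near that of all genes (3.89% and 0.63%). Tnfrsf9, the costimulatory receptor 4-1BB, read 220.2, 244 and 282 CPM in LPS and 111, 110.3 and 106 CPM in LPS+MP, and the chemokine receptor gene Ccr1 fell from 6.41 ± 0.915 to 1.97 ± 0.687 CPM. Of 18 uptake receptors 5 fell and 0 rose, and 14 were lower at any size (median -0.70). Itgam, the alpha chain of complement receptor 3, read 1022, 1168 and 1071 CPM in LPS and 469.7, 505 and 477 CPM in LPS+MP (-1.17 ± 0.08). Clec4n (chromosome 6, 123229843 to 123247021), which encodes the fungal mannan receptor Dectin-2, read 208, 242 and 222 CPM and 76.8, 77.1 and 92.7 CPM, and the immunoglobulin receptor gene Fcgr4 215, 227 and 195 CPM and 87.9, 82.9 and 92.6 CPM. In these 3 genes every LPS+MP library was far below every LPS library. The scavenger receptor gene Cd36 and the mannose receptor gene Mrc1 were low, falling from 3.15 ± 0.337 to 0.951 ± 0.281 CPM and from 2.84 ± 1.01 to 0.607 ± 0.339 CPM.

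Of 18 macrophage identity genes 3 fell and 0 rose, and 6 fell without LPS replicate 2. The 3 were Itgam, the transcription factor gene Maf and P2ry12, and the additional 3 were lysozyme (Lyz2) and the complement genes C1qa and C1qc, at -0.99 ± 0.09, -0.87 ± 0.15 and -0.89 ± 0.12 with all libraries. Maf read 47.8, 25.7 and 50.9 CPM in LPS and 10.6, 13.6 and 14.7 CPM in LPS+MP, with LPS replicate 2 the lowest of its group. Among 8 purinergic and adenosine genes 3 fell: the ADP receptor genes P2ry12 (-1.57 ± 0.16) and P2ry13 (-1.86 ± 0.19), and Entpd1 (-1.03 ± 0.14), the enzyme that removes extracellular ATP and ADP. Entpd1 was not called without LPS replicate 3 (-0.94) or LPS+MP replicate 2 (-0.94).

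Of 12 matrix genes 4 fell and 0 rose. The number of falls was 5 without LPS replicate 2. Mmp8, a collagenase, read 51.1, 51.0 and 38.3 CPM in LPS and 5.63, 3.89 and 7.07 CPM in LPS+MP (-2.89 ± 0.19, adjusted p = 1.69e-08). Thbs1, the matricellular protein thrombospondin 1, read 136, 116 and 114 CPM and 15.4, 19.8 and 19.3 CPM. Both genes had means under 2 CPM in control and MP cells. The gelatinase gene Mmp9 and the collagenase gene Mmp13 changed by -1.05 ± 0.13 and -1.06 ± 0.15. Mmp9 missed the size limit without LPS replicate 3 (-0.91) or LPS+MP replicate 1 (-0.93), and Mmp13 without LPS replicate 1 (-0.86).

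Genes of the antioxidant factor NRF2 rose in part. NRF2 is held down by KEAP1 and released by electrophiles, oxidants or the autophagy receptor p62. Of 26 targets 6 rose, 0 fell and 20 were higher at any size (median 0.50), and 5 rose without LPS replicate 2. Sqstm1 (chromosome 11, 50199366 to 50210827), which encodes p62, read 673, 629 and 719 CPM in LPS and 2172, 2379 and 2168 CPM in LPS+MP (1.73 ± 0.07, adjusted p = 2.81e-10). Srxn1, which repairs oxidized peroxiredoxins, read 154, 177 and 164 CPM and 400.0, 399 and 402 CPM, and Gclm, a subunit of the first enzyme of glutathione synthesis, 97.7, 103 and 109 CPM and 220.2, 223 and 233 CPM. In each of these genes the replicates lay close together and the groups were far apart. The peroxiredoxin gene Prdx1 rose by 1.0 ± 0.09. Gsta3, a glutathione transferase gene, rose by 1.04 ± 0.15, and both were at the size limit. The Prdx1 call ended without LPS replicate 1 (0.93) or 3 (0.96) and without LPS+MP replicate 1 (0.98). That of Gsta3 ended without LPS replicate 3 (0.95) and without LPS+MP replicate 1 (0.99) or 2 (0.99). Ftl1, the light chain of the iron store ferritin, read 4850.3, 3447 and 5489 CPM and 9879, 10679 and 9764 CPM and was also the 1 rise among 13 genes of iron and metal handling; it was no longer called without LPS replicate 2, its lowest library (0.97). Hmox1, which degrades heme, read 477, 420.4 and 549.5 CPM in LPS and 821, 858 and 778 CPM in LPS+MP and did not reach the size limit (0.77 ± 0.09). The core letters TGACNNNGC of the antioxidant element, searched on both strands, were found before 5 of 21 NRF2 targets (23.8%), against 10.1% of all promoters and 12.3% of those of genes tested, and the looser TGANNNNGC, which includes them, before 11 (52.4%), against 35.1% and 37%. Lists that fell also held these letters. The stricter and looser shares were 17.6% and 52.9% in the mitosis list and 21.1% and 36.8% in the replication list. In the recombination list they were 15.4% and 38.5%.

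In the other stress lists few members were called. Ddit3, the CHOP factor of the integrated stress response, was the 1 rise among 19 ATF4 targets, with 42.1, 47.0 and 47.0 CPM in LPS and 98.9, 109 and 91.0 CPM in LPS+MP. Unfolded protein response genes had 0 of 18 called, and 10 were lower and 0 higher at any size (median -0.32); the endoplasmic reticulum disulfide isomerase gene Pdia4 stood at -0.49 ± 0.08. Heat shock chaperones had 0 of 10 called. Sqstm1 was also the 1 rise among 24 genes of selective autophagy, and 0 of 28 lysosomal genes were called, with 6 higher and 2 lower at any size. The proton pump subunit gene Atp6v1h read 133, 152 and 131 CPM and 197, 198 and 189.8 CPM (0.49 ± 0.07).

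Cholesterol genes were mostly lower. Cholesterol synthesis and uptake had 1 of 21 genes called, Acat2, at 75.4, 73.9 and 75.1 CPM in LPS and 26.8, 33.4 and 35.6 CPM in LPS+MP, while 19 were lower and 0 higher at any size (median -0.67). The 1 fall is near the share of all genes that fell (3.89%), and 22.2% of all genes were lower at any size. Of 17 genes of lipid handling 1 rose and 2 fell. Scd2, a fatty acid desaturase, read 1751, 1792 and 1678 CPM and 602, 689 and 760.2 CPM, and Cd36 was the other that fell. Without LPS replicate 2 the falls were 3, as the desaturase gene Scd1 was called (-1.04) and stood at -0.78 ± 0.20 with all libraries. Hilpda, a lipid droplet protein that inhibits lipolysis, read 94.4, 74.8 and 106 CPM in LPS and 213, 211 and 209 CPM in LPS+MP. The cholesterol exporter gene Abca1 was at 857 ± 78.5 and 503 ± 34.7 CPM, a change of -0.77 ± 0.09 under the size limit. In glycolysis and the hypoxia response 0 of 19 and 0 of 13 genes were called. The 20 ribosomal protein genes, 24 nuclear genes of the respiratory chain and 13 mitochondrially encoded genes also had 0 called. At any size 11 ribosomal protein genes were higher and 0 lower (median 0.30), against 13% and 22.2% of all genes. The respiratory chain genes had 2 higher and 2 lower, and the mitochondrially encoded genes 0 higher and 4 lower. Mitochondrially encoded genes were at a median of -0.33 with all libraries and -0.17 without LPS replicate 2, and mt-Co1, a subunit of cytochrome oxidase, read 24224, 30545 and 24891 CPM in LPS and 14414, 14750.3 and 16366 CPM in LPS+MP. Of 27 histone genes 1 rose, the linker histone gene Hist1h1c, by 1.26 ± 0.15, while 15 were higher and 2 lower at any size (median 0.51). Histone, ribosomal protein and ferritin genes have near-identical copies, and how shared reads were counted is not given in the sources used here.

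The same particles were also given to cells without LPS, and this pair of groups shares no library with the pair above. Without LPS 214 genes rose (1.82%) and 217 fell (1.85%). Of the rises 23 were common to both settings, which is 31.1% of the 74 with LPS and 10.7% of the 214 without. Of the falls 60 were common, 13.1% of the 457 with LPS and 27.6% of the 217 without. One gene, Clec4n, fell with LPS and rose without it. Across genes the fold changes of the 2 settings had a Spearman correlation of 0.437, a description over genes that share libraries.

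The test of the difference between the settings, the interaction of LPS and MP, called 120 genes as changing more upward (1.02%) and 432 as changing more downward with LPS (3.68%). It called 33 of the 74 rises (44.6%) and 209 of the 457 falls (45.7%). For the other 41 and 248 genes no difference between the settings was called, which does not show that the changes were alike. Sqstm1, for example, rose by 1.73 ± 0.07 with LPS and 1.66 ± 0.07 without, a difference of 0.07 ± 0.10. Nos2 changed by -2.23 ± 0.23 and -2.32 ± 0.23 (difference 0.10 ± 0.32). Its level in control cells was only 6.48 ± 0.687 CPM, and the log2(CPM + 1) scale compresses a fall from so low a level. The small difference for Nos2 therefore does not show equal ratios in the 2 settings. Tlr13 (-1.62 ± 0.12 and -1.70 ± 0.12) and Scd2 (-1.35 ± 0.09 and -1.39 ± 0.09) also had small differences, 0.08 ± 0.17 and 0.03 ± 0.12.

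The fall of mitosis genes was mostly deeper with LPS than without. Without LPS 0 of the 20 mitosis genes were called (median -0.57). The difference was called downward in 13 of 20, against 3.68% of all genes tested. Kif11 changed by -2.65 ± 0.12 with LPS and -0.75 ± 0.12 without, a difference of -1.90 ± 0.18 (adjusted p = 2.84e-06). E2f8 changed by -3.0 ± 0.12 and -0.96 ± 0.12, with a difference of -2.03 ± 0.16. Genes with little or no level in cells without LPS made another part of the called differences. Thbs1 and Mmp8 were such genes, with differences of -2.85 ± 0.29 and -2.47 ± 0.26, and so were the rises Lif (2.20 ± 0.37), Inhba (1.78 ± 0.32) and Csf3 (1.35 ± 0.15). Klf2, at 36.4 ± 3.82 CPM in MP and lowest in the LPS group, differed by 1.99 ± 0.16.

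Other genes changed with microparticles in cells without LPS and less, or the other way, where LPS was present. Clec4n had the largest difference among named genes on the log2(CPM + 1) scale, -3.76 ± 0.15 (adjusted p = 7.71e-10): it read 11.7 ± 0.316 CPM in control, 63.0 ± 9.38 CPM in MP, 224 ± 16.8 CPM in LPS and 82.2 ± 9.12 CPM in LPS+MP. The cysteine-forming enzyme gene Cth rose by 3.40 ± 0.07 without LPS and changed by 0.45 ± 0.07 with it, and its level was 196 ± 3.87 CPM in MP and 204 ± 5.64 CPM in LPS+MP. Cd86, a costimulatory ligand gene, rose from 41.0 ± 2.21 to 172 ± 20.5 CPM without LPS and stood at 373 ± 41.0 and 375 ± 7.15 CPM with it. Gadd45a, a growth arrest gene, and the complement gene C3 gave differences of -2.22 ± 0.13 and -1.81 ± 0.13. In the opposite sense, Tnfrsf9 changed by -3.94 ± 0.11 without LPS and -1.17 ± 0.11 with it, a difference of 2.76 ± 0.15. Frmd6, Hdac7, a class IIa histone deacetylase gene, and Sdc3, a syndecan gene, fell without LPS (-1.87 ± 0.10, -2.28 ± 0.11 and -1.97 ± 0.07) and stood at 0.27 ± 0.10, -0.23 ± 0.11 and -0.70 ± 0.07 with it. Id3, an inhibitor of helix-loop-helix factors, fell by 1.16 ± 0.10 without LPS and stood at 0.91 ± 0.10 with it. Some genes of hypoxia and glycolysis belonged to the same kind: the difference was called upward in 4 of 13 and 4 of 19, and downward in 0 and 1. Over all genes tested the shares were 1.02% upward and 3.68% downward, so the 1 downward call in glycolysis is near the share of all genes. Bnip3, a mitophagy receptor gene induced by hypoxia, changed by -2.78 ± 0.14 without LPS and -0.63 ± 0.14 with it, and lactate dehydrogenase (Ldha) by -1.28 ± 0.09 and -0.21 ± 0.09.

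**Figure D5:**
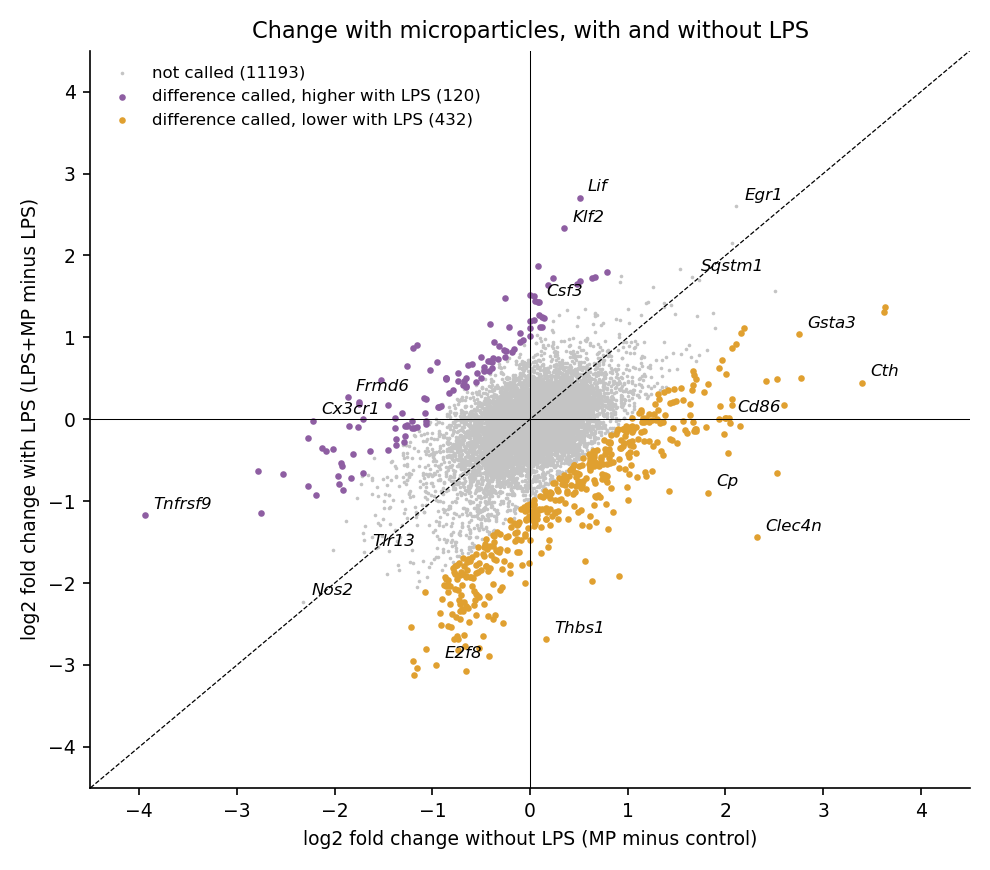
Log2 fold change with microparticles in cells without LPS (x axis, MP minus control) and with LPS (y axis, LPS+MP minus LPS) for 11745 genes, with the dashed line at equal change. Coloured points are genes whose difference between the settings was called, 120 upward (purple) and 432 downward (orange), and Clec4n is the gene that rose without LPS and fell with it.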

How the data were processed

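Polyadenylated RNA of 12 J774A.1 libraries was sequenced, with 3 biological replicates in each of 4 groups per the series description; p-values measure the spread between these libraries. The submitters' processing notes name edgeR, DESeq2, HTSeq, TopHat2 2.1.1, Trimmomatic 0.36 and FastQC 11.5 without their roles. The authors' deposited columns are headed RPKM, but each sums to between 998867 and 999273 without division by length, so they were read as deposited CPM and the test planned for RPKM was applied to them. Values under 0.5 CPM were all whole multiples of 1 step (within 0.05 of a step) in 2 libraries, and the share was 0.907 and 0.903 in MP 2 and LPS+MP 3 and 0.165 to 0.788 in the other 8. So reads were not recovered, depth is unknown and no count model or counting interval is given. The genome build is not given in the sources used here; coordinates are those of the table, and all 11655 transcripts matched to GENCODE M21 (GRCm38) lay on the same chromosome there, 6328 with the identical start.

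From the deposited CPM, log2(CPM + 1) was computed, 17 genes under 1 CPM in more than 9 libraries were left out, and 4 group means were fitted to the 12 libraries in R 4.3.3 by limma 3.58.1, using a variance trend and Benjamini-Hochberg adjustment over the 11745 genes of each comparison. The thresholds are those of the series description. The procedure was tested on simulated data with the same spread in every group and with changes placed only in genes well above the floor. It therefore does not cover the larger spread of the LPS group or falls of genes with low levels. A log2 fold change understates the change of genes near 1 CPM. Members and lists were chosen with earlier results of these data known, and no list was tested as a set. Genes named were the 15 largest rises and 15 largest falls whose libraries do not overlap, up to 6 called members of each list (or 2 where none was called), the 10 most significant interactions in each direction and 10 preset genes; 1 gene that the rule names is not reported here. Outside this rule, Bnip3, C1qa, C1qc, Ccnd3, Cdc20, Cdk1, Cdkn1a, Dusp1, Dusp14, E2f2, Fosl1, Il18, Ldha, Lyz2, Mcm2, Ptgs2, Scd1, Socs1, Xrcc2 and Zfp36 were chosen after their values were seen. Promoters are those of RefSeq (GRCm38.p6), 1 per gene, matched by symbol for 8699 of 11723 symbols. Alternatives were another pseudocount, filters, scalings, a replicate block, no trend, library weights, only the compared groups, and leaving out each library.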

Additional observations from a re-analysis of the deposited data

Results flagged for a closer look

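The change with microparticles differed between cells with and without LPS in 62 of the genes named above, by the interaction test of limma (adjusted p under 0.05 and a difference over 2-fold). Over all genes 120 differed upward and 432 downward. Each value is the log2 fold change with LPS minus that without. In genes of mitosis and its control, the difference was -1.84 for Top2a, -1.66 for Aurkb, -1.45 for Mki67, -1.32 for Ccnb1, -1.90 for Kif11, -2.10 for Cenpf, -1.95 for Nuf2, -1.33 for Ndc80, -2.41 for Casc5, -2.03 for E2f8, -1.56 for Foxm1 and -1.09 for Mybl2. All of these genes were lower with microparticles in both settings, and more so with LPS. In replication and repair genes it came to -1.93 for Rrm2, -1.75 for Cdc6, -1.29 for Mcm6, -1.18 for Mcm5, -1.03 for Mcm3, -2.27 for Pole, -1.89 for Clspn, -1.91 for Exo1, -1.59 for Rad54l, -1.36 for Brca1, -1.33 for Fancd2, -1.20 for Fanca and -2.16 for Neil3. Secreted and matrix genes with a more downward change under LPS had differences of -1.27 for Il10, -1.29 for Cxcl3, -2.61 for Ppbp, -1.75 for Ccl6, -2.47 for Mmp8, -2.85 for Thbs1, -1.81 for C3 and -1.24 for Lyz2. Among receptors and surface proteins the downward differences were -3.76 for Clec4n, -1.74 for Tlr8, -2.13 for Ccr1, -1.14 for Mrc1, -1.22 for Cd36, -2.02 for Cd86 and -1.15 for P2ry13. Clec4n is the 1 gene that rose without LPS and fell with it. Enzyme, stress and mitochondrial genes gave -2.95 for Cth, -1.71 for Gsta3, -2.22 for Gadd45a, -1.08 for Ddit3, -1.19 for Ptgs2 and -1.16 for mt-Co1. Upward differences of early and secreted factors were 2.20 for Lif, 1.99 for Klf2, 1.78 for Inhba, 1.5 for Dusp5, 1.47 for Rhob, 1.35 for Csf3, 1.17 for Areg, 1.10 for Csrnp1 and 1.09 for Maff. For genes that fell with microparticles without LPS, the upward differences were 2.76 for Tnfrsf9, 2.15 for Bnip3, 2.14 for Frmd6, 2.06 for Id3, 2.05 for Hdac7, 1.27 for Sdc3 and 1.07 for Ldha. Where the level without LPS was near 0, as for Csf3, Inhba, Lif and Thbs1, a change without LPS could hardly be seen on this scale. LPS replicate 2 enters each of these differences, and without it 59 of 62 were still called the same way (not Maff, Mcm3, P2ry13).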

How the results depend on the processing

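At the smaller pseudocount (0.1), 123 genes rose with microparticles in LPS-treated cells in place of 74, and 335 in place of 214 without LPS. Falls with LPS were 684 in place of 457, and downward interactions were 593 in place of 432. All 74 and 457 calls of LPS+MP against LPS were kept. Quantile normalization gave 129 rises, and 193 interactions called upward in place of 120; it moved the median log2 fold change of all genes from -0.05 to 0.04. The other settings left the counts of rises and of upward interactions within 1.5 times their value. All settings left the 3 counts of falls within 1.5 times theirs. Leaving out 1 library at a time gave 71 to 108 rises and 450 to 479 falls with LPS, 198 to 236 and 202 to 250 without LPS, and 98 to 149 and 421 to 466 interactions. Of the 92 genes named above that were called, 77 were called under every alternative and none of the 130 changed direction past the threshold. Quantile normalization ended the calls of 9 (Il6, Mcm2, Ccne1, Bmf, Prdx1, Entpd1, Ftl1, Cd36 and Mmp9) and library weights those of 5 (Tlr7, Mmp13, Fosl1, Hist1h1c and Ftl1); the cause was not tested. Same-numbered libraries of different groups had residual correlations of -0.247 to 0.158 (median 0.018). A library's best match carried its own number in 3 of 12 cases. With 3 libraries a group this comparison cannot settle whether the numbers pair the libraries. A replicate block gave 74 rises and 457 falls with LPS, 214 and 217 without, and 119 and 433 interactions. Depth is unknown, so the precision of low values such as those of E2f8 or Neil3 in LPS+MP rests on the 3 libraries alone.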
